A study of Mus musculus with 80 samples.

Results

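The lungs of wild-type mice were compared with 4 other organs of wild-type mice. Every array labelled wild-type lung was used, which gave 8 of the 80 arrays of the series, and these were set against 32 wild-type arrays of brain, heart, kidney and liver, 8 of each organ. The study asked how mice lacking serum carboxylesterase, the product of the Es-1 locus (also named Ces1c), differ from wild-type mice as a model of nerve agent poisoning. All mice were untreated, on a C57BL/6 background and fed standard chow. Each organ and genotype held 4 female and 4 male arrays, and the ages of the animals were not given in the sources used here. The 40 wild-type arrays came from 11 animals, counting an animal number in the titles as 1 animal. Of these, 5 gave all 5 organs, 3 gave a lung alone and 3 gave the other 4 organs and no lung.

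The values are log2 expression levels, on which 1 unit is a 2-fold difference. A gene was called lung-enriched when its lung mean was at least 1 log2 unit above the highest of the other 4 organ means and each of the 4 differences had an adjusted p under 0.05 in limma, and lung-depleted when the mirror of both conditions held. The difference from the highest other organ, or from the lowest for a depleted gene, is called the margin, and the p given for a gene is the largest of its 4 Benjamini-Hochberg adjusted p-values. No detection call came with the values, so a level near or under 4.07, the median of all deposited values, is called dim. In whole organs, fewer cells of a type and less RNA per cell cannot be told apart.

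The lung exchanges gas across alveoli lined by flat type 1 cells and by cuboidal type 2 cells, which make surfactant, a film of phospholipid and protein that lowers surface tension. Conducting airways are lined by secretory club cells and by ciliated cells that move mucus. A dense capillary bed, elastic connective tissue and resident macrophages complete the organ. The lung was the tissue the labels named: Sftpc, the type 2 cell protein surfactant protein C, lay between 13.69 and 13.95 in the 8 lungs and between 3.23 and 4.25 in the other 32 arrays. Scgb1a1, the main secretory protein of club cells, lay between 13.52 and 13.84 in the lungs and between 2.98 and 4.99 elsewhere.

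Some arrays carried transcripts of other tissues, and how these came to be there was not tested. The lung of female 1265 had a mean level of 7.79 over 7 genes of squamous epithelium of the oesophagus type, against 3.29 to 3.45 in the other 7 lungs. Krt4, a keratin of such epithelium, was at 11.51 there and between 3.36 and 4.06 in the others. Over 12 skeletal muscle genes, this lung averaged 7.28 and the lung of male 903 averaged 7.77, with 3.66 to 5.08 in the remaining 6. The lung of male 903 also had the highest mean of the adipocyte genes, 8.24 against 4.06 to 6.69, with Cidea, a lipid droplet protein of brown fat, at 8.93 against 3.87 to 5.62. The lung of male 1960 had the lowest atrial and pulmonary vein muscle mean, 5.60 against 6.96 to 8.06. Squamous, skeletal muscle, hepatocyte, kidney, neuron, thyroid, cartilage and red cell lists held 0 lung-enriched genes, as did the atrial and ventricular lists. These counts cover the listed genes alone. Calml3, a gene of squamous epithelium outside the squamous list, was enriched, at 7.52 in the lung of female 1265 and 3.39 to 5.90 in the others. Counts of enriched and depleted genes were 967 and 132 without the lung of male 903, 931 and 126 without that of female 1265, and 924 and 123 without that of male 1960, against 940 and 130 with all arrays. In the heart of male 903, Alb, the albumin gene of hepatocytes, was at 12.32, and it lay between 4.45 and 8.93 in the other 7 wild-type hearts. The skeletal muscle genes averaged 7.09 in the brain of female 1264, against 4.20 to 4.56 in the other wild-type brains. They averaged 5.21 and 6.00 in the livers of females 1264 and 1265, against 3.65 to 3.76 in the other wild-type livers. The part of these tissues in the results was not tested beyond leaving the arrays out.

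**Figure D1:**
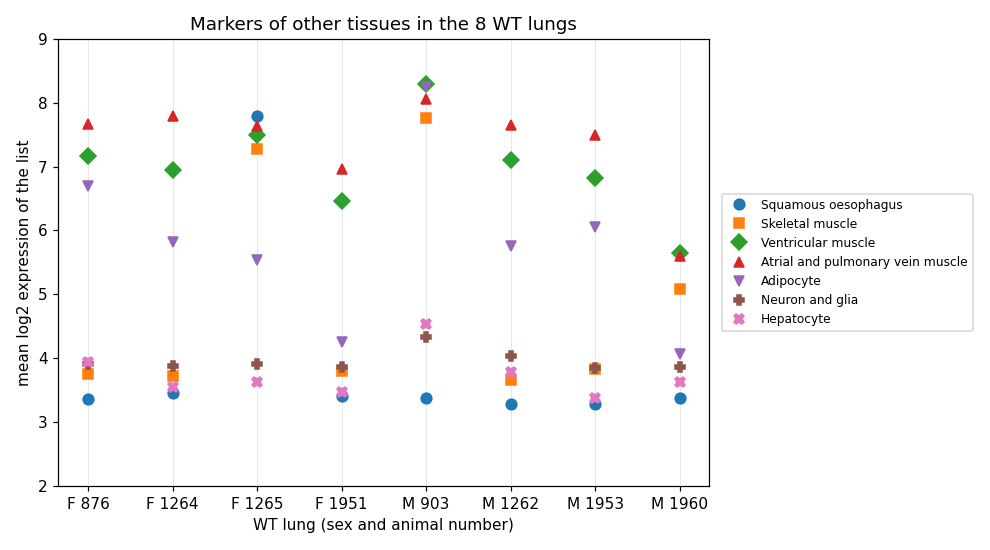
Mean log2 level (vertical axis) of 7 marker lists of other tissues in each of the 8 wild-type lungs, 1 symbol per list. The lung of female 1265 stands at 7.79 for squamous epithelium and those of female 1265 and male 903 at 7.28 and 7.77 for skeletal muscle.

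Of 17097 genes, 940 were lung-enriched, which is 5.5% of all genes tested, and 130 were lung-depleted, which is 0.76%. These shares are the background for the counts of each gene list below. By any size, 14.5% of genes were higher in lung than in each of the 4 organs and 6.68% were lower. Enriched genes had a median margin of 1.60, and all genes together had a median of -0.48 against the highest other organ. A margin of at least 2 was found for 317 genes and one of at least 5 for 27. The organ next to the lung was the heart for 387 of the enriched genes, the kidney for 204, the liver for 178 and the brain for 171. For 187 enriched genes all 4 other organ means were dim. In 804 of the 940 genes the lowest lung lay above the highest of the 32 other arrays, a pattern held by 7.07% of all genes. The threshold of 1 cut a continuous range, with Wasf2 and Btbd7 just inside at 1.0014 and 1.0013, and Tspan9 and Fzd6 just outside at 0.9999 and 0.9989.

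The 25 genes with the largest margins, from 5.20 to 10.07, included surfactant proteins, secretoglobins and chitinase-like proteins. Sftpc led with a level of 13.81 ± 0.091 (SD, n = 8) and a margin of 10.07 (SE 0.095, limma adjusted p = 1.58e-41). Scgb1a1 followed at 13.64 ± 0.098 (SD, n = 8) with a margin of 9.91 (SE 0.15, limma adjusted p = 6.46e-36). Ager, the receptor for advanced glycation end products on type 1 cells, had a lowest, median and highest lung value of 13.18, 13.35 and 13.41, against 3.27 to 4.39 in the other organs, and a margin of 9.44. Sftpa1, surfactant protein A, had lung values from 13.08 to 13.36, against 3.23 to 4.01 elsewhere, and a margin of 9.42. For these genes the spread over lungs was small beside the gap. All 8 lungs lay above all 32 other arrays in each of the 25 genes, as 7.07% of all genes did. The 25 were chosen by their margins in these same arrays, so such a separation and a small p follow largely from the choice. The largest adjusted p among the 25 was 2.89e-16 in limma. Chil1, a chitinase-like lectin (6.80), its relative Chil4 (6.20), Chia1, an acidic chitinase (5.36), Adgrg6, an adhesion G-protein-coupled receptor (5.33), and Liph, a phospholipase (5.20), were also among them. The other probe set of Chil4 was dim in lung, at 3.18, with a margin of 0.03. That of Liph was also dim, at 3.65, with a margin of 0.50. The results of Chil4 and Liph thus depend on the probe set.

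**Figure D2:**
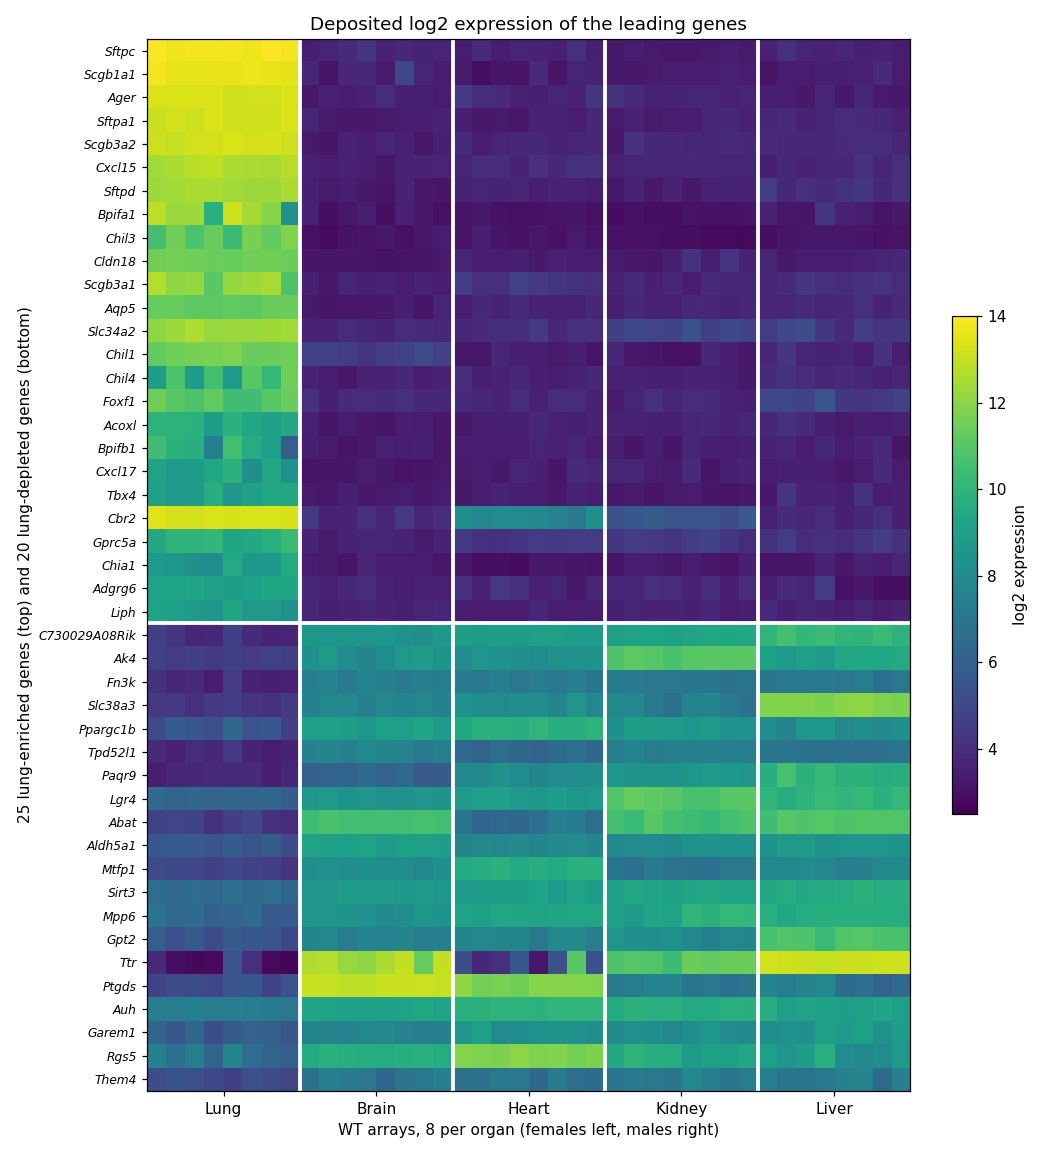
Log2 level, as colour, of the 25 enriched (top) and 20 depleted genes (bottom) with the largest margins, 1 row per gene and 1 column per wild-type array, 8 per organ. The 8 lungs lie above the 32 other arrays in every row of the upper block, and Sftpc, its first row, is at 13.69 to 13.95 in lung and 3.23 to 4.25 elsewhere.

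Genes of the type 2 cell are described first. Of 13 measured members of the surfactant and type 2 list, 8 were enriched, 0 were depleted, and the list's median margin was 3.79. Surfactant protein D (Sftpd), a collectin that binds microbes, ranged from 12.29 to 12.55 in the lungs and from 3.13 to 4.49 elsewhere, with a margin of 8.33. Cxcl15, the chemokine lungkine, had a margin of 8.70. Slc34a2, the phosphate transporter of type 2 cells, had a margin of 7.41, with 4.91 in the kidney, the next organ. Lpcat1, which makes the saturated phosphatidylcholine of surfactant, stood at 11.42 ± 0.23 (SD, n = 8) against 7.59 in the brain, a margin of 3.84 (SE 0.094). The gene was above the dim level in every organ, with means from 6.13 to 7.59 outside the lung.

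Other genes used as type 2 markers did not separate the lung in this way. Abca3, the lipid transporter of the lamellar body, lay between 10.91 and 11.48 in the lungs, and the kidney mean was 10.94, a margin of 0.18. Napsa, the protease napsin A that processes surfactant protein B, had a margin of 0.21 over the kidney, where it is also known, and its adjusted p was 0.21 in limma. Ctsh, the lysosomal protease cathepsin H, had a margin of 0.05 over the liver. Nkx2-1, the transcription factor that specifies lung epithelium, read 4.08 ± 0.42 (SD, n = 8), near the dim level, with a margin of 0.70 (SE 0.12, limma adjusted p = 3.21e-06). Its lungs ran from 3.50 to 4.87 and the other arrays from 2.91 to 3.71, so that 7 of 8 lungs lay above all others.

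Type 1 cell genes had a median margin of 2.85, with 10 of 15 measured members enriched. Cldn18, a tight junction protein, lay between 11.27 and 11.61 in the lungs and between 3.08 and 4.21 elsewhere, a margin of 7.85. Aqp5, a water channel, had a margin of 7.42, with lungs from 11.09 to 11.38. Emp2, a membrane protein, had a margin of 3.48 over the heart, and its lowest lung of 11.32 lay well under its median of 12.31. Akap5, which anchors protein kinase A, had a margin of 2.85 over the brain. Hopx, a homeodomain protein often used to mark type 1 cells, was above every other organ but not enriched, at 13.03 in lung and 12.24 in heart. The mean of the whole list was 10.91 in the lung of male 903 and between 11.16 and 11.33 in the other 7.

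Airway secretory genes had the highest list median of the epithelial groups, 4.84, with 10 of 13 members enriched. The secretoglobins Scgb3a2 and Scgb3a1 had margins of 9.35 and 7.67. Bpifa1, an antimicrobial protein of the airway lining, had a margin of 8.16 (SE 0.39), and its lungs spread from 8.33 to 13.14 around a median of 12.29. Cbr2, a carbonyl reductase, had a steady level of 13.33 ± 0.077 (SD, n = 8) with the heart next at 7.93. Muc5b, the gel-forming mucin, lay between 5.29 and 8.73 in the lungs, and the other arrays lay between 3.17 and 4.27. The secretoglobins and Bpifa1 were therefore far above the other organs in every lung, but Bpifa1 and Muc5b differed between lungs much more than Scgb1a1 or Cbr2 did. Krt19, a keratin of simple epithelium, had a margin of 4.45. None of the 5 measured basal cell genes were enriched, and Krt5 averaged 4.06 in lung.

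Ciliated cell genes numbered 13 enriched of 18 measured, with a median margin of 2.54, and 16 of the 18 were above all 4 organs, which 14.5% of all genes were. Tmem212 and Ccdc153, both transcribed in multiciliated cells, had margins of 4.31 and 4.12, with the brain next in each. Foxj1, the transcription factor of motile cilia, lay between 5.85 and 7.74 in the lungs and between 3.16 and 4.36 elsewhere, a margin of 2.71 (SE 0.17). Cdhr3, a cadherin-related receptor of ciliated cells, had a margin of 3.33. With arrays centred on their medians, 12 of 18 were enriched. The list mean ran from 5.52 in the lung of male 1960 to 7.06 in that of female 876.

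RFX factors are transcription factors of ciliated cells that bind a short motif, so the promoters of the ciliated genes were read for the letters GTTGCC or, on the other strand, GGCAAC. The promoters are those of RefSeq on build GRCm38.p6, 250 bases before to 50 after the start, and 14 of the 18 genes matched 16 promoters. The motif was in 9 of the 16 (56.2%), against 12.5% of all 32851 promoters and 13.5% of the 909 promoters matched to enriched genes. In the last 60 bases before the start it was in 8 of 16 (50.0%), against 2.92% of all promoters. Those 8 windows are shown because they carry that count, with each match in capitals.
Ccdc113, chr8:95534040-95534099, plus strand: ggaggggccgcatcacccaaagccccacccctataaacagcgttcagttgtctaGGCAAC
Tekt1, chr11:72361883-72361942, minus strand: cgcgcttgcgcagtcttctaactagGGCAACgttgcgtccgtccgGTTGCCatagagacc
Dnaic2, chr11:114727359-114727418, plus strand: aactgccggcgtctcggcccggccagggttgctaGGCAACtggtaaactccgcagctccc
Spag6, chr2:18698962-18699021, plus strand: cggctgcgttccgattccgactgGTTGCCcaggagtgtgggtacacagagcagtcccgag
Hydin, chr8:110266917-110266976, plus strand: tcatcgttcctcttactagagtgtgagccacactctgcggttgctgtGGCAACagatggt
Pifo, chr3:106001498-106001557, minus strand: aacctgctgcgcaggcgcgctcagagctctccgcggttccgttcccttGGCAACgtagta
Lrrc23, chr6:124779728-124779787, minus strand: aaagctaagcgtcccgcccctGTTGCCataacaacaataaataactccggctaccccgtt
Cdhr3, chr12:33092876-33092935, minus strand: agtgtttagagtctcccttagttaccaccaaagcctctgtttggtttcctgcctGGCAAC
Of these 8 genes, Ccdc113, Tekt1, Pifo, Lrrc23 and Cdhr3 were lung-enriched, and Dnaic2, Spag6 and Hydin were not. The list holds genes known to act in cilia, and a match in a window is a description of its letters and not a measured site.

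The core of the site bound by NKX2-1, CTCAAG or CTTGAG on the other strand, was in 4 of 20 promoters of the 25 leading genes and in 7 of 27 promoters of the alveolar lists. It was in 15.9% of all promoters and in 15.5% of those of enriched genes. Promoters around the core are shown for a surfactant and a secretoglobin gene among the leading 25, with the core in capitals.
Sftpa1, chr14:41131595-41131654, plus strand: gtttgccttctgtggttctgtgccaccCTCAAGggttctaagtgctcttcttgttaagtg
Scgb3a1, chr11:49663396-49663455, plus strand: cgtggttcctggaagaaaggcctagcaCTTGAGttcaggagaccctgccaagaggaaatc
Over the enriched genes as a group the core was thus as frequent as over all promoters. Sftpc and Scgb1a1 had no entry in the promoter table.

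**Figure D3:**
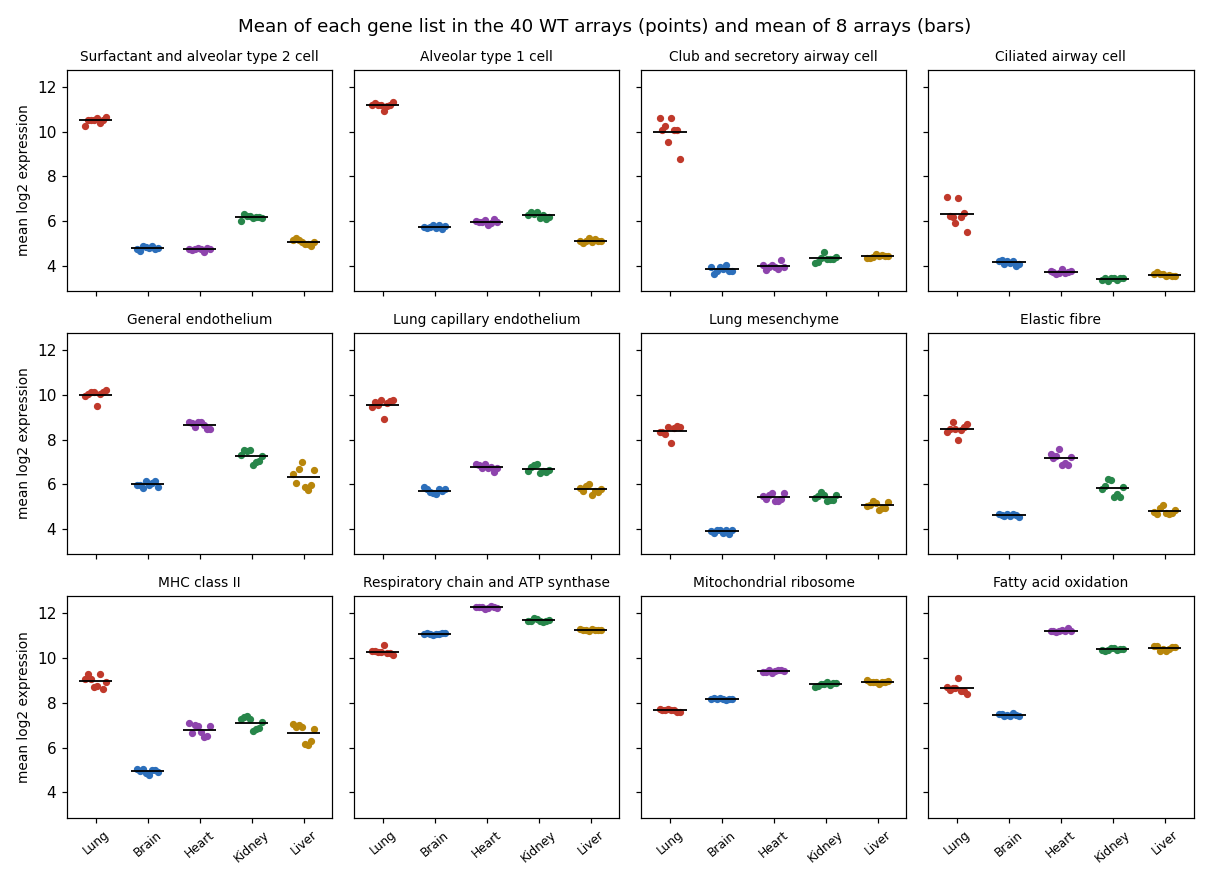
Mean log2 level of 12 gene lists in each of the 40 wild-type arrays (points) and the mean of the 8 arrays of an organ (bars). The alveolar, airway, endothelial, mesenchymal, elastic fibre and MHC class II lists are highest in lung, and the respiratory chain list is lowest there at 10.29, with 12.26 in heart.

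Endothelial genes separated the lung from the heart, which also has many vessels. Of 22 general endothelial genes, 12 were enriched and 17 were above all 4 organs, with a median margin of 1.41. The list mean was 10.02 in lung and 8.66 in heart. Calcrl, the receptor of adrenomedullin and of calcitonin gene-related peptide, lay between 10.95 and 11.91 in the lungs and averaged 7.64 in heart, a margin of 3.77. Clec14a, an endothelial lectin, had a margin of 3.35 and a lowest lung of 9.09 against a median of 10.33. Cldn5, the claudin of endothelial junctions, had a margin of 3.11, with the brain next at 8.39.

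Genes known from lung capillaries had a larger median margin, 1.93, with 11 of 15 enriched. Icam1, an adhesion molecule for leukocytes, lay between 10.50 and 11.23 in the lungs and between 3.81 and 7.34 elsewhere, a margin of 4.06. Tmem100 and Acvrl1, both of the BMP9 pathway of endothelium, had margins of 3.52 and 2.91. Edn1, the vasoconstrictor endothelin 1, had a margin of 2.10. The lung of male 903 had the lowest mean of the general list, 9.48 against 9.96 to 10.22, and of the capillary list, 8.90 against 9.46 to 9.77. Without it, 13 general and 12 capillary genes were enriched. Of 5 lymphatic genes, Lyve1, a hyaluronan receptor, was enriched with a margin of 2.90, and Prox1, the factor of lymphatic fate, was depleted. Prox1 lay between 3.09 and 3.86 in the lungs and averaged 8.13 in liver and 7.77 in heart, with a margin of -1.24.

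Mesenchymal genes included 2 transcription factors among the 25 leading genes. Foxf1, a forkhead factor of lung mesenchyme and endothelium, lay between 10.46 and 11.52 in the lungs, and the liver, next, averaged 4.78, a margin of 6.19. Tbx4, a T-box factor of lung mesenchyme, had a margin of 5.41. Hoxa5 had a margin of 2.22 over the kidney, and with Hoxb5 (1.07) it made the 2 enriched genes of 27 measured Hox genes, where 5.5% of all genes were enriched. The margin of Hoxb5 was under 1 with a new quantile normalisation and with centring on array medians, which left Hoxa5. Of 17 mesenchymal genes 10 were enriched, with a median margin of 1.66. Foxf1, Tbx4 and Hoxa5 were all dim in brain and heart, and of the 3 only Hoxa5 was well above the dim level in the kidney, at 7.08.

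Among the genes of elastic fibres, 7 of 15 were enriched. Mfap4, a microfibril protein, had a margin of 3.76, with lungs from 10.67 to 12.35, and Ltbp2, which binds fibrillin, had a margin of 3.42. Of 20 collagen and basement membrane genes 4 were enriched, led by the laminin chain Lama3, and after centring on array medians 1 was. Of 11 smooth muscle and pericyte genes, Cnn1 (2.60), Actg2 (2.29) and Myh11 (1.06), contractile proteins, were enriched. In the same list Rgs5, a pericyte regulator of G-protein signalling, was depleted. It lay between 5.93 and 7.78 in the lungs and between 7.87 and 12.00 elsewhere, a margin of -1.80 (SE 0.19). Of 5 mesothelial genes, which mark the lining of the pleura, Upk1b, a uroplakin (2.41), and Msln, mesothelin (1.83), were enriched.

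Immune genes are described by cell type, starting with antigen presentation. All 10 measured MHC class II genes were higher than in each of the 4 organs and 9 were enriched, with a median margin of 1.64. After centring on array medians 7 were enriched. Cd74, the invariant chain, lay between 11.42 and 11.95 in the lungs and averaged 9.96 in the kidney. Ciita, which switches this gene family on, had a margin of 2.06, and H2-Ob, which tunes peptide loading, one of 2.56.

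Alveolar macrophages clear surfactant, and 6 of 13 of their genes were enriched. Chil3, a chitinase-like lectin, had lungs from 10.34 to 11.83 and other arrays from 2.81 to 3.43, a margin of 7.95. Itgax, the integrin CD11c, had a margin of 2.69, and Siglecf, a sialic acid receptor, one of 2.16. Siglecf ran from 3.84 to 6.49 in the lungs, the lowest of which was above the highest other array at 3.57. Marco, a scavenger receptor, was not above the liver, at 5.87 in lung and 6.39 in liver. Of 21 general macrophage and monocyte genes 6 were enriched, among them Lyz2, lysozyme (2.42), and Cd14, the endotoxin co-receptor (2.24). The median margin of this list was 0.07, and after centring on array medians it was -0.55, with 3 genes enriched.

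Of 19 T and NK cell genes 7 were enriched, and of 12 B and plasma cell genes 5 were. Under a new quantile normalisation, and likewise after centring on array medians, 3 B and plasma cell genes were enriched. Gzma, a granzyme of cytotoxic cells, lay between 6.00 and 8.47 in the lungs and between 3.08 and 4.58 elsewhere, a margin of 3.33. Ms4a1, the B cell antigen CD20, had a margin of 2.85, and Cd2, an adhesion receptor of T and NK cells, one of 2.76. Thymocyte genes had 0 enriched members of 6, and their highest list mean in a lung was 3.41. Of 16 neutrophil genes 4 were enriched, all of them genes of antimicrobial proteins: Ltf, S100a8, S100a9 and Lcn2. S100a8 ran from 5.29 to 10.07 in the lungs, and in 1 lung it lay within the range of the other organs, whose highest value was 6.05. Ltf, lactoferrin, is also made by airway glands, and its lungs ran from 5.22 to 10.60. Of 33 chemokines 6 were enriched, led by Cxcl15 and by Cxcl17 (5.43), a mucosal chemokine. Of 18 interferon response genes 2 were enriched, Oasl2 (1.22) and Xaf1 (1.07), where 5.5% of all genes were. Under a new quantile normalisation 1 was enriched, and none remained after centring on array medians.

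Transport and vascular signalling genes were enriched for a few members of each list. Of 12 ion and water transport genes 4 were, and beside Aqp5 and Slc34a2 these were Ano1, a chloride channel (2.77), and Scnn1g, a subunit of the epithelial sodium channel (1.50 over the kidney). Ptger2, a receptor of prostaglandin E2, had a margin of 2.08, and Alox5ap, which helps make leukotrienes, one of 1.60. Ace, the angiotensin-converting enzyme of endothelium, had a margin of 1.09 over the kidney (SE 0.15), with lungs from 6.80 to 7.91, and in males alone its margin was 0.38 and it was not called. Agt, the precursor that renin cleaves to the substrate of this enzyme, was depleted, with lungs from 3.65 to 3.94 and a margin of -1.21 below the heart. In the liver, its known source, Agt averaged 11.26.

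Among 19 xenobiotic oxidation genes 4 were enriched. Cyp2b10, a cytochrome P450 of drug metabolism, lay between 10.70 and 11.10 in the lungs, and the liver, next, averaged 8.09, a margin of 2.85. Cyp1a1, a P450 induced through the aryl hydrocarbon receptor, had a margin of 3.45 (SE 0.45), but its lungs ran from 4.75 to 10.36. Fmo2, the flavin monooxygenase of lung, had a margin of 1.22 over the kidney. Cyp2f2, the P450 of club cells, was as high in lung (13.32) as in any organ, but the liver mean was 12.65 and its adjusted p was 0.22 in limma. In the heart of male 903, which also had high Alb, Cyp2f2 was at 8.66, against 3.27 to 4.74 in the other wild-type hearts. That heart enters the pooled spread used for this p, and the p without it is not given here. Ces1c itself was dim in the lungs, at 2.95 to 3.85 in wild type.

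The lung-depleted genes fell into fewer groups. The median margin of the 130 was -1.24, and all genes together had a median of 0.35 against the lowest other organ. The brain was next to the lung for 70 of them, the liver for 24, the heart for 21 and the kidney for 15. In 119 of the 130 every lung lay below every other array, a pattern held by 2.35% of all genes. Just inside the threshold were Snap47 and Mfn2 at -1.0026 and -1.0006, and just outside Aars2 and Prxl2b at -0.9971 and -0.9868.

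The largest deficit was that of C730029A08Rik, a transcript named only by its clone, which lay between 3.59 and 4.67 in the lungs and between 8.18 and 10.55 elsewhere. Its margin was -4.48 (SE 0.12, limma adjusted p = 3.08e-28). Ak4, a mitochondrial adenylate kinase, lay between 4.45 and 4.72 in the lungs and between 7.73 and 11.10 elsewhere, a margin of -3.68 (SE 0.10, limma adjusted p = 2.7e-27). The lungs were thus near the dim level in both, and the other organs at least 3 log2 units above. Fn3k, which removes sugar adducts from proteins, had a margin of -3.26, and Slc38a3, a glutamine transporter, one of -3.04.

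Several of the 20 most depleted genes are known for mitochondrial functions. Ppargc1b, a coactivator of mitochondrial genes, lay between 4.60 and 6.36 in the lungs and between 7.71 and 10.01 elsewhere, a margin of -2.69 (SE 0.16). Sirt3, the mitochondrial deacetylase, lay between 6.37 and 6.84 in the lungs and between 8.48 and 9.83 elsewhere, a margin of -2.13. Mtfp1, a protein of mitochondrial fission, had a margin of -2.13, and Gpt2, the mitochondrial alanine transaminase, one of -2.06. Abat and Aldh5a1, which in sequence break down GABA, had margins of -2.23 and -2.22. Lgr4, a receptor of R-spondins, had a margin of -2.24, and Ptgds, prostaglandin D synthase, one of -1.84. The others of the 20 not described elsewhere were Tpd52l1 (-2.63), Paqr9 (-2.38), Mpp6 (-2.11), Garem1 (-1.80) and Them4 (-1.70).

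Ttr, the carrier of thyroxine and retinol, was called with a margin of -2.04 that rested in part on 1 heart. Ttr lay between 2.71 and 5.45 in the lungs, and 5 of 8 lungs were below all other arrays. The heart of male 903, which also had high Alb, had a Ttr level of 11.06 against 3.26 to 5.63 in the other 7 hearts. Without that heart the margin was -1.24 and without both the heart and the lung of male 903 it was -1.52.

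Respiratory chain and ATP synthase genes were low as a group. Of 45 measured, 41 were lower in lung than in each of the 4 organs and 9 were lung-depleted, where 6.68% of all genes were lower than in each organ. The median difference from the lowest other organ was -0.74. Under a new quantile normalisation 7 were depleted, and after centring on array medians 17 were. The list mean in the lungs was 10.29, from 10.13 to 10.61, with 11.08 in brain, 11.27 in liver, 11.69 in kidney and 12.26 in heart. Ndufa10, a subunit of complex I, lay between 9.79 and 10.42 in the lungs and between 11.25 and 12.66 elsewhere, a margin of -1.40 (SE 0.064). Ndufs1, the largest complex I subunit, had a margin of -1.15, and Atp5g1, of the ATP synthase ring, one of -1.18.

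Of 27 mitochondrial ribosome genes, 19 were lower than in each of the 4 organs and 3 were depleted, where 6.68% and 0.76% of all genes were. Their list mean was 7.68 in lung, 8.18 in brain, 8.84 in kidney, 8.93 in liver and 9.41 in heart. Mrps22, a protein of the small subunit, had a margin of -1.48. Of 16 citric acid cycle and pyruvate genes 8 were lower than in all 4 organs, and Idh3b was called depleted. Another probe set of Idh3b, the one with the highest variance, gave 0.65 in the opposite direction, so this gene's result depends on the probe set. Fatty acid oxidation genes had 0 depleted of 19, since the brain was lower still in 16, but 18 were lower than in heart, 19 than in kidney and 18 than in liver.

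Glycolysis held 2 depleted genes of 16, Tpi1 and Pgk1, with margins of -1.65 and -1.23. Of 16 branched-chain and ketone genes 3 were depleted: Auh, an enzyme of leucine breakdown (-1.82), Got2, the mitochondrial aspartate transaminase (-1.47), and Bckdhb, a subunit of the branched-chain dehydrogenase (-1.46). The lung of male 903, which held muscle and fat markers, had the highest means of the respiratory chain (10.61), citric acid cycle (9.74) and fatty acid oxidation lists (9.10). Without that lung 132 genes were depleted. In the adipocyte list Thrsp, a regulator of lipid synthesis, was called depleted at -1.15, with lungs from 4.45 to 9.50. It was not called without the lung of female 1951 (-0.80), that of male 1960 (-0.71) or the brain of female 936 (-1.10).

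Compared with 1 organ at a time, most genes differed from lung. Higher in lung than in brain were 6194 genes (36.2% of those tested) and lower 5446 (31.9%). Against heart the counts were 5885 (34.4%) and 5836 (34.1%), against kidney 5545 (32.4%) and 5190 (30.4%), and against liver 6268 (36.7%) and 7082 (41.4%). The share of called genes that were higher in lung depended on the scaling. It was 53.2% against brain as deposited and 44.2% after centring on array medians, 50.2% and 28.1% against heart, and 51.7% and 36.4% against kidney. Against liver it was 47.0% as deposited, and after centring 3686 genes were higher and 11702 lower. Centring moved the median gene to -0.11, -0.40, -0.19 and -0.71 in the same order, from 0.01, -0.06, -0.03 and -0.09.

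Beside genes of the lung alone, some were shared by the lung and 1 other organ, with both means at least 2 log2 units above the other 3 organs and less than 1 unit apart. The heart shared 61 such genes, the kidney 32, the brain 29 and the liver 23. Hc, complement component C5, averaged 11.86 in lung and 11.93 in liver, and at most 4.15 in the other 3. Col4a3, a collagen IV chain of the alveolar and glomerular basement membranes, averaged 9.38 in lung and 9.39 in kidney. Epcam, an epithelial adhesion molecule, was at 9.69 in lung and 10.11 in kidney. Scube2, a secreted protein of hedgehog signalling, was at 8.65 in lung and 8.74 in heart, and Spock2, a matrix proteoglycan, at 9.33 in lung and 10.14 in brain.

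Heart muscle genes were also measured in lung. Actc1, cardiac actin, averaged 11.33 in lung and 13.46 in heart, and at most 3.60 in the other 3 organs, with lungs from 10.59 to 12.02. Over 5 atrial and pulmonary vein muscle genes the lung mean was 7.36 and the heart mean 9.47, against 3.65 to 4.05 in the others. Over 11 ventricular muscle genes the lung mean was 6.99, against 12.52 in heart and 3.62 to 4.36 in the others. This list ran from 5.65 in the lung of male 1960 to 8.29 in that of male 903. Its mean did not hold for every ventricular gene. Myl2, a ventricular myosin light chain, was at 7.87 in the lung of male 903 and averaged 13.67 in heart. In the other lungs Myl2 lay between 3.56 and 4.55, near the dim level. In mice, heart-type muscle is known to extend along the pulmonary veins, and the source of these transcripts was not tested. Myl7, an atrial myosin light chain, ran from 8.52 in the lung of male 1960 to 11.58 in that of male 903.

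The spread among the 8 lungs differed from gene to gene. Over the enriched genes the SD between lungs had a median of 0.33 and a highest value of 2.05, and over all genes the median was 0.18. An SD of at least 1 was found in 94 genes in all, 16 of them enriched. Cyp1a1 had the largest, with 4.75, 7.27, 10.02 and 10.36 in females 876, 1264, 1265 and 1951 and 5.27, 7.01, 8.53 and 6.49 in males 903, 1262, 1953 and 1960. The high values belonged to 2 of the 4 females, and the lowest to another female.

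Bpifa1 in the same order read 12.86, 12.25, 12.32 and 9.80 in females and 13.14, 12.44, 11.96 and 8.33 in males. The lungs of female 1951 and male 1960 were thus the low ones. Ltf read 10.60, 8.62, 8.05 and 5.22 in females and 10.20 to 5.95 in males, with the same 2 lungs lowest and those of female 876 and male 903 highest. Muc5b was also lowest in female 1951 and male 1960, at 5.71 and 5.29, and highest in female 876 and male 903, at 8.73 and 8.48. The lung means of the ciliated list were highest and lowest in these same animals, at 7.06 in female 876, 7.05 in male 903, 5.90 in female 1951 and 5.52 in male 1960.

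S100a8 had the opposite order, with 5.29, 8.96, 8.79 and 10.07 in females and 6.48, 9.42, 7.94 and 10.01 in males. The lungs of female 876 and male 903 were the lowest and those of female 1951 and male 1960 the highest. Chil4, a chitinase-like protein, read 8.92, 10.74, 8.80 and 10.53 in females and 8.67, 11.03, 10.16 and 11.45 in males. These values are from 1 probe set, and the other probe set of Chil4 was dim in lung, at a mean of 3.18. Calml3, a calmodulin-like protein of squamous epithelium, was highest at 7.52 in the lung of female 1265, which held the squamous markers. Among knockout lungs the SD of Bpifa1 was 0.75 and that of Ltf 0.90, against 1.68 and 1.86 in wild type, and the difference in spread was not tested.

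**Figure D4:**
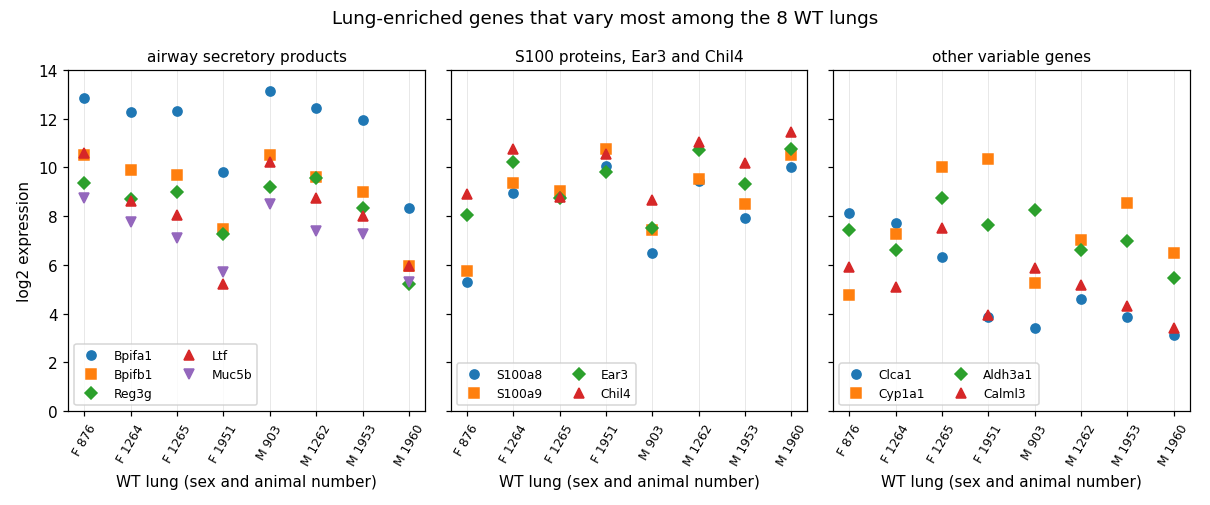
Log2 level of 13 of the enriched genes with the largest SD between lungs, 1 symbol per gene, in each of the 8 wild-type lungs. Bpifa1, Ltf and Muc5b are lowest in female 1951 and male 1960, where S100a8 is highest at 10.07 and 10.01.

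Male and female lungs differed in few enriched genes. Of 17097 genes 17 were called between the sexes, which is 0.0994%, and 2 of the 940 enriched genes were among them. At an unadjusted limma p under 0.05, 57 enriched genes differed (6.06%), against 4.25% of all genes. Clca1, a protease secreted with mucus, read 8.13, 7.70, 6.33 and 3.87 in females and 3.40, 4.58, 3.87 and 3.13 in males. The groups overlapped, and the male minus female difference was -2.76 (SE 0.43, limma adjusted p = 0.000398). The SE and adjusted p of each sex difference given here rest on a spread pooled over all organs, not on the lungs alone. Over the wild-type lungs of both sexes the SD of Clca1 was 1.98, so its SE may be too small for the lung. A fit to the lungs alone was not made for the sexes. Tnfsf9, the ligand of the T cell receptor 4-1BB, read 5.84, 5.49, 5.76 and 4.85 in females and 4.88, 4.52, 4.32 and 4.27 in males, a difference of -0.99 (SE 0.16, limma adjusted p = 0.0014). Both were called when any 1 lung was left out, with the spread again pooled over the organs. The number of enriched genes called was then 2 to 7, with 7 without male 903 and 6 without male 1262. Cyp26b1, which degrades retinoic acid, was not enriched and was picked after its values were seen. It read 7.43, 6.60, 7.06 and 6.22 in females and 5.09, 4.01, 4.71 and 4.68 in males, with no overlap, a difference of -2.21 (SE 0.33, limma adjusted p = 0.000211).

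Knockout mice gave a second set of 40 arrays that did not enter the calls, apart from the choice of each gene's probe set. Ces1c was at 9.70 to 12.04 in 8 knockout livers and 12.11 to 12.63 in 8 wild-type livers, and where its probes lie relative to the deleted part is not given in the sources used here. It was dim in the lungs of both genotypes, so that it could not check their labels. Fitted alone, the knockout arrays gave 919 enriched genes (5.38% of genes) and 151 depleted genes (0.883%). These held 847 of the 940 wild-type enriched genes (90.1%) and 115 of the 130 depleted genes (88.5%). All 940 knockout margins were above 0 and all 130 were below 0. The 25 leading enriched and the 20 leading depleted genes were all called again. The smallest knockout margin was that of Klf10, 0.14 against 1.25 in wild type.

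Of the knockout hearts, 2 held airway transcripts, and the margins of the airway secretory genes moved with them. Scgb1a1 was at 10.72 in the heart of female 781 and 11.74 in that of male 964, and between 3.07 and 3.87 in the other 6. Its margin was 8.32 with these hearts and 10.05 without them. Scgb3a2 moved from 7.47 to 9.28 and Bpifa1 from 6.69 to 8.70. Sftpc was at 3.53 and 3.50 in the 2 hearts, and its margin was 9.88 with and without them. Without the 2 hearts 924 genes were enriched and 152 depleted in the knockout arrays, and 850 and 116 of the wild-type genes were among them.

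Between the genotypes, 8 knockout and 8 wild-type lungs differed in 1 gene of 17097 (0.00585%) and in 0 of the 940 enriched genes in limma. At an unadjusted p under 0.05, 37 enriched genes differed (3.94%), against 821 of all genes (4.8%). Differences over the enriched genes ran from -0.74 to 0.55. The called gene was Wdfy1, an adaptor of endosomal Toll-like receptors, which was not enriched and was picked after its values were seen. It was 1.91 higher in knockout lungs (limma adjusted p = 0.000411). Wild-type lungs also differed in this gene, with 7.73 in female 876 and 6.19 to 6.60 in the others.

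**Figure D5:**
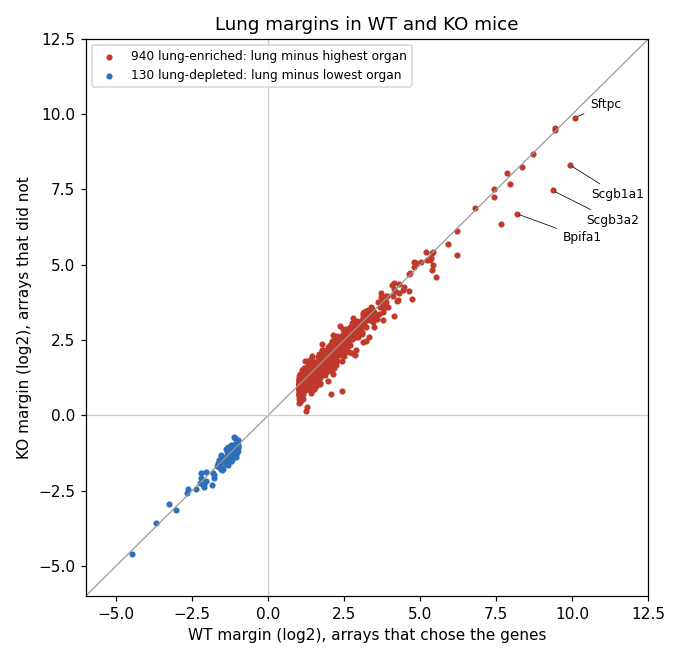
Margin of each lung-enriched and lung-depleted gene in wild-type arrays (horizontal axis) and in knockout arrays (vertical axis), both in log2 units, 1 point per gene. All 940 enriched genes lie above 0 and all 130 depleted genes below 0 in the knockout arrays.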

How the data were processed

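Total RNA from frozen, powdered tissue was made into biotin cRNA for Affymetrix HT MG-430 PM arrays, per the labels' protocols. The deposited values are log2 levels per probe set, made by the authors with RMA. Affymetrix Expression Console and Partek are also named in the submitters' processing notes, with versions and settings not given in the sources used here. Whether all organs were normalised together is not stated. Values ran from 2.23 to 14.06, and the number of arrays limits the precision. The p-values measure the spread between arrays of the same organ, sex and genotype, pooled over the organs of a fit. Within an organ these arrays are labelled as different animals. Organs of the same animal entered the main fit as separate arrays.

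The arrays hold 45141 probe sets, 104 of them controls that were not used. The platform annotation named 28898 with 1 gene and 551 with several, and 15588 are unnamed here. Symbols were updated by gene ID for 28689. Each of 17097 genes was read from the probe set with the greatest average level in the 80 arrays. The columns of other series numbered 0, and no 2 arrays were identical. The heart of knockout female 994, whose tissue field says lung, was placed by its title.

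Group means of organ by sex were fitted to the 40 wild-type arrays in limma 3.58.1 (R 4.3.3 and the package data.table, version 1.17.8) with eBayes, contrasts were averaged over the sexes, and p-values were adjusted by Benjamini-Hochberg over all genes of a contrast. Knockout arrays were fitted alone in the same way. The code was tested on simulated data. Tables and plots used Python 3.11.15, pandas 2.3.3 and matplotlib 3.10.9.

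Named genes were the 25 enriched and 20 depleted genes of largest margin, Sftpc and Scgb1a1, up to 4 members at each end of 51 gene lists, of whose 869 entries 774 were measured, the 3 not enriched genes furthest above each organ, up to 5 shared genes per organ and the 5 enriched genes of smallest p by sex and by genotype. The genes beside the threshold, the markers of stray tissue, Calml3, Cyp26b1, Klf10, Myl2 and Wdfy1 were named after their values were seen. Gene sets, members and lists were chosen with earlier results of these data known. Alternatives were another normalisation, median centring, other probe set rules, stricter thresholds, 1 sex, the animal as a block, and leaving out arrays.

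Titles give same-numbered arrays of 1 sex and genotype as 1 animal. Over 20 pairs of a wild-type lung and another organ of 1 animal, the median correlation of the residuals was 0.0978 (-0.11 to 0.31), and over 236 other pairs it was 0.0039.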

Additional observations from a re-analysis of the deposited data

Results flagged for a closer look

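Of 98 items examined over the 8 wild-type lungs (leading genes and list means), 14 had 1 lung standing apart from the other 7 by Dixon's gap test, where chance gives about 1 in 20. Most were values of the lung of male 903. Its list means were the lowest for type 1 cells (10.91, others 11.16 to 11.33), general endothelium (9.48, others 9.96 to 10.22), lung capillaries (8.90, others 9.46 to 9.77), lung mesenchyme (7.83, others 8.27 to 8.60) and vascular tone genes (6.86, others 7.15 to 7.26). They were the highest for the respiratory chain (10.61, others 10.13 to 10.33), the citric acid cycle (9.74, others 9.28 to 9.48), fatty acid oxidation (9.10, others 8.40 to 8.69) and neurons and glia (4.34, others 3.84 to 4.03).

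In the lung of female 1265 the squamous list mean was 7.79, with 3.29 to 3.45 in the others. The lung of female 876 had the lowest red cell mean, 6.03 against 7.43 to 8.27. The lung of male 1960 had the lowest atrial and pulmonary vein mean, 5.60 against 6.96 to 8.06, the highest thymocyte mean, 3.41 against 3.08 to 3.21, and the lowest level of Aldh5a1, an enzyme of GABA breakdown, 5.12 against 5.56 to 5.90.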

How the results depend on the processing

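Of 630 counts under alternatives, 612 lay within 1.5 times the reported count. Centring arrays on their medians gave 622 enriched and 229 depleted genes, all 622 among the 940 and all 130 depleted genes among the 229. It gave 10331 genes lower in lung than in heart, 8125 lower than in kidney, and 3686 higher and 11702 lower than in liver. A margin of 2 log2 units left 317 enriched and 15 depleted genes. A new quantile normalisation gave 843 and 174, sharing 831 and 125 genes with the reported sets. Averaging over all probe sets that name a gene gave 811 and 95, sharing 791 and 90 genes. Part of the 130 depleted calls thus depended on the probe set rule. Females alone gave 868 and 117, sharing 836 and 108 genes. With the animal as a replicate block (correlation 0.057) 936 were enriched and 129 depleted, 934 of the former shared, and the block moved no count past 1.5 times. Leaving out 1 array at a time gave 924 to 967 enriched and 123 to 132 depleted genes. For the sexes it gave 3 to 10 genes higher in males, 7 to 19 lower, and 2 to 7 enriched genes called. For the genotypes it gave 0 to 1 lower in knockout lungs, the 1 without knockout lung 1871. The 156 named enriched or depleted genes were chosen largely by their margins in the same arrays. Of the 53 settings, 40 left out 1 array. The agreement of these genes therefore says little about the other calls. Of 8268 values of the 156 named genes, 8259 kept their direction and an adjusted p under 0.05, but 100, in 32 genes, had a margin under 1. Centring accounted for 21 of these (Oasl2, Xaf1, Hoxb5, Ace, Myh11, Tnfsf9 and 15 others) and the new quantile normalisation for 10. Idh3b reversed to 0.65 with the probe set of highest variance, and the cause was not tested. In the other 8 the adjusted p rose past 0.05: Thrsp in 6 settings, Jchain in females alone (1.91) and Ace in males alone (0.38). Dim levels have no detection call, so margins over dim organs depend on array background.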
